A study of Mus musculus with 2 samples.

Results

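The genes described here are 10 of the annotated neighbours of Dusp2 on mouse chromosome 2. They are Ncaph, Itpripl1, Snrnp200, Ciao1, Tmem127 and Stard7 upstream of it, and Fahd2a, Kcnip3, Zfp661 and Mrps5 downstream. Other annotated genes lie among them. The 10 were chosen by symbol and position and not by a measured value, though with earlier results of these data known. They are 10 of the 33696 genes in the matrices. Each was followed in both libraries, within cell classes gated on marker genes. The question was whether the edit of Dusp2, or the stretch of genome around it, goes with a different level of nearby RNAs.

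The samples were tumours grown from the mouse Lewis lung carcinoma line LLC, taken from wild-type mice (WT) and from Dusp2-/- mice (KO). The labels describe the cells of both as lymphocytes that had infiltrated the tumour, and each genotype is 1 library of single-cell 3' RNA. By the labels the molecule was total RNA in the WT library but polyA RNA in the KO library. The strain, age and number of mice, the deleted part of Dusp2, the cells the knockout was made in and any strain difference around the locus were not given in the sources used here. Genotype therefore cannot be told apart from mouse, tumour or library preparation, no test was made, and every interval below is a 95% interval that covers counting error only.

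A gene knocked out by targeting can be accompanied by altered RNA of its neighbours, because an edit can remove or add regulatory sequence. A targeted allele also carries along flanking DNA of the strain in which it was made. Dusp2 itself encodes a nuclear phosphatase that acts on MAP kinases and is induced when lymphocytes are activated. Its neighbours have unrelated duties. Stard7 carries phosphatidylcholine to mitochondria, Mrps5 is a protein of the small mitochondrial ribosomal subunit, Ciao1 helps insert iron-sulphur clusters into cytosolic and nuclear proteins, and Tmem127 is an endolysosomal membrane protein that restrains mTORC1. Snrnp200 is the helicase that unwinds the U4/U6 RNA pair in the spliceosome, and Ncaph is the kleisin subunit of condensin I, which compacts chromosomes in mitosis. Kcnip3, also called calsenilin or DREAM, is a calcium sensor, Zfp661 is a KRAB zinc finger protein, Fahd2a is a protein with a fumarylacetoacetate hydrolase domain, and Itpripl1 is a membrane protein related to ITPRIP.

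Dusp2 lies on the plus strand of chromosome 2 from base 127336159 to 127338376 (GRCm38, GENCODE M21), and all 10 neighbours are protein-coding. Stard7 (plus strand, 127270218 to 127298932) ends 37.2 kb before Dusp2 starts and is the nearest member. Tmem127 (plus strand, 127247908 to 127261107) and Ciao1 (minus strand, 127240938 to 127247816) lie 75.1 and 88.3 kb away and start head to head, with 91 bases between them. Snrnp200 (plus strand, 127208386 to 127240451) is 95.7 kb away, Itpripl1 (minus strand, 127138772 to 127143442) 193 kb and Ncaph (minus strand, 127103809 to 127133954) 202 kb. Downstream, Fahd2a (minus strand, 127436215 to 127444565) is 97.8 kb away and Kcnip3 (minus strand, 127456498 to 127522094) 118 kb. Zfp661 (minus strand, 127574662 to 127587094) and Mrps5 (plus strand, 127587222 to 127606829) are 236 and 249 kb away and form the other head-to-head pair among the members, with 127 bases between them.

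The intervals between head-to-head genes are shown because both genes of a pair start there, and the bases before Dusp2 because that start belongs to the edited gene. All are RefSeq promoter bases on GRCm38.p6, plus strand, cut so that no transcript base is included. Capitals mark GGGCGG (the GC box) and CCGGAA (the core of an ETS-family site) on either strand. They run from chr2:127247817-127247903 between Ciao1 and Tmem127, chr2:127587095-127587221 between Zfp661 and Mrps5, chr2:127208281-127208385 between 1810024B03Rik and Snrnp200, and chr2:127336009-127336158 before Dusp2.
Ciao1 and Tmem127: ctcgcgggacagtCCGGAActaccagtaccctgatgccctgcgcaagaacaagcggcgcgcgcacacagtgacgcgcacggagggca
Zfp661 and Mrps5: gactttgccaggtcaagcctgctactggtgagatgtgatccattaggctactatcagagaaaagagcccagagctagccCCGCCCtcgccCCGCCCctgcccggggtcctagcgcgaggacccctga
1810024B03Rik and Snrnp200: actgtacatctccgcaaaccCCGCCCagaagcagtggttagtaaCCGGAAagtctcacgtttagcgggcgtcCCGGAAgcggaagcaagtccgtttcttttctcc
Dusp2 upstream: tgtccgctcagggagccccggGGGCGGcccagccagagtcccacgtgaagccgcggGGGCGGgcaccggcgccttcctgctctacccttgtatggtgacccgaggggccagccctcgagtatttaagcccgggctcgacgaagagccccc

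GC made up 66.7% of the Ciao1 and Tmem127 interval, 62.2% of the Zfp661 and Mrps5 interval, 55.2% of the Snrnp200 interval and 71.3% of the bases before Dusp2. Promoter windows of 300 bases, from 250 before to 50 after a start, were found for 10 of 10 members. GGGCGG was present on either strand in 8 of the 10 (all but Ncaph and Kcnip3) and in that of Dusp2, against 35.7% of 32851 mouse windows. CCGGAA was in 5 of 10, those of Ncaph, Snrnp200, Ciao1, Tmem127 and Fahd2a, against 14.9% of windows. CCAAT was in 2 of 10, Stard7 and Kcnip3, against 37.4%, and TATAAA was in 0 of 10, against 13.6%. The windows of a head-to-head pair share bases, so these counts are not over independent sequences, and a match of letters is not a binding site.

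The WT library holds 9890 barcodes and 113873249 UMIs (unique molecule counts), the KO library 12744 and 101532711. Filters on genes and mitochondrial RNA left 9765 and 12636 cells, whose median depth was 8598 and 4796 UMIs, and the libraries share 31 barcode sequences. Gates gave 8 classes with at least 50 cells in each library. WT and KO held 452 and 778 CD8 T cells, 145 and 441 CD4 T cells, 126 and 126 regulatory T cells, 480 and 206 NK cells, 4237 and 1274 monocytes or macrophages, 236 and 222 conventional dendritic cells and 86 and 92 fibroblasts. The eighth class, called tumour cells here, held 376 and 323 cells with at least 2 UMIs of Y-chromosome genes and no Ptprc UMI. They carried the LLC-linked genes Rhox5 at 926 CPM in WT and 906 CPM in KO and Krt8 at 501 and 463 CPM. The tumour classes were not alike in all respects: 7 fibroblast markers summed to 1242 CPM in WT and 598 CPM in KO. Their median depth was 31329.5 and 25988 UMIs. The part of these differences in the tumour ratios was not tested. The gate takes Y-chromosome RNA as a mark of the line, and the sex of the mice is not stated here. CPM is the UMIs of a gene scaled to a fixed total of UMIs in the class. The labels call the cells lymphocytes, and macrophages made up 43.4% of the kept WT cells and 10.1% of the kept KO cells. RNA of other cell types was present in all gates: the antibody gene Igkc stood at 0 to 119.5 CPM in the compared WT classes and at 221 to 815 CPM in the KO classes. The macrophage gene Lyz2 stood at 179 to 206 CPM in WT T and NK cells and 67.6 to 117 CPM in KO. Their part in the results was not tested.

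Dusp2 was checked first. In NK cells it stood at 1108 CPM (3075 UMIs) in WT and 3.53 CPM (4 UMIs) in KO, a log2 ratio of KO over WT of -8.29 (-10.17 to -6.94). CD8 T cells held 579 CPM in WT and 9.82 CPM in KO, log2 -5.88 (-6.36 to -5.44), and a single KO cell held 10 of the 42 UMIs. The log2 ratio was -8.12 in CD4 T cells on 2 KO UMIs, -4.48 in conventional dendritic cells and -4.00 in macrophages. Among regulatory T cells 129 UMIs were counted in WT against 0 in KO, at least 37.3-fold lower against a floor of 3 UMIs in the library. In tumour cells the level was 76.4 CPM (71.5 to 81.6) in the WT library against 76.2 CPM (70.8 to 81.9) in the KO library, log2 -0.0045 (-0.15 to 0.14). The mouse, not the LLC line, carries the knockout by the labels. The tumour cells thus serve as a class in which the host allele is not the cell's own, and the ratio of each neighbour there is given beside the host classes.

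No neighbour had a ratio of the size seen for Dusp2. A ratio was computed where a class held at least 50 UMIs of the gene over both libraries, which gave 43 of 80 possible values, 20 higher and 23 lower in KO. The share of all measured genes that were lower in KO ran from 53.2% in conventional dendritic cells to 61.8% in CD8 T cells. Of the 43 member values, 9 lay past 1.5-fold in either direction. Past 2-fold lay 1 of 43, for which no share over all genes is given. Members past 1.5-fold were 3 of 8 in CD8 T cells, where 18.8% of all 8900 measured genes were past it, and 1 of 5 in CD4 T cells, against 24.7% of genes. They were 0 of 3 in regulatory T cells (18.1% of genes), 2 of 6 in NK cells (17.1%), 0 of 8 in macrophages (9.61%) and 1 of 5 in conventional dendritic cells (14.5%). In tumour cells 2 of 8 were past it, against 11.8% of genes. In fibroblasts no member reached 50 UMIs (18.8% of genes with 50 UMIs were past the fold there). Each count differs by less than 2 genes from what the background share would give. With so few members per class, a gap of that size shows neither a match with the background nor a departure from it.

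The median log2 ratio of the measured members lay within the middle 50% of all genes in each of the 7 classes that had one. It was -0.27 in CD8 T cells against -0.10 over all genes, -0.18 against -0.05 in CD4 T cells, 0.04 against -0.06 in regulatory T cells and -0.18 against -0.09 in NK cells. Macrophages had 0.07 against -0.03, conventional dendritic cells -0.04 against -0.03 and tumour cells 0.15 against -0.04. In tumour cells the members' median of 0.149 lay close to the upper edge of the middle 50%, 0.154. A median of a few genes varies less than single genes do. Lying within the middle 50% therefore does not show that the members match the background. Leaving immunoglobulin, mitochondrial, ribosomal protein and haemoglobin genes out of the totals moved the median of all genes by more than 0.1 in CD8 T cells, from -0.10 to 0.02, and in CD4 T cells, from -0.05 to 0.08.

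**Figure D1:**
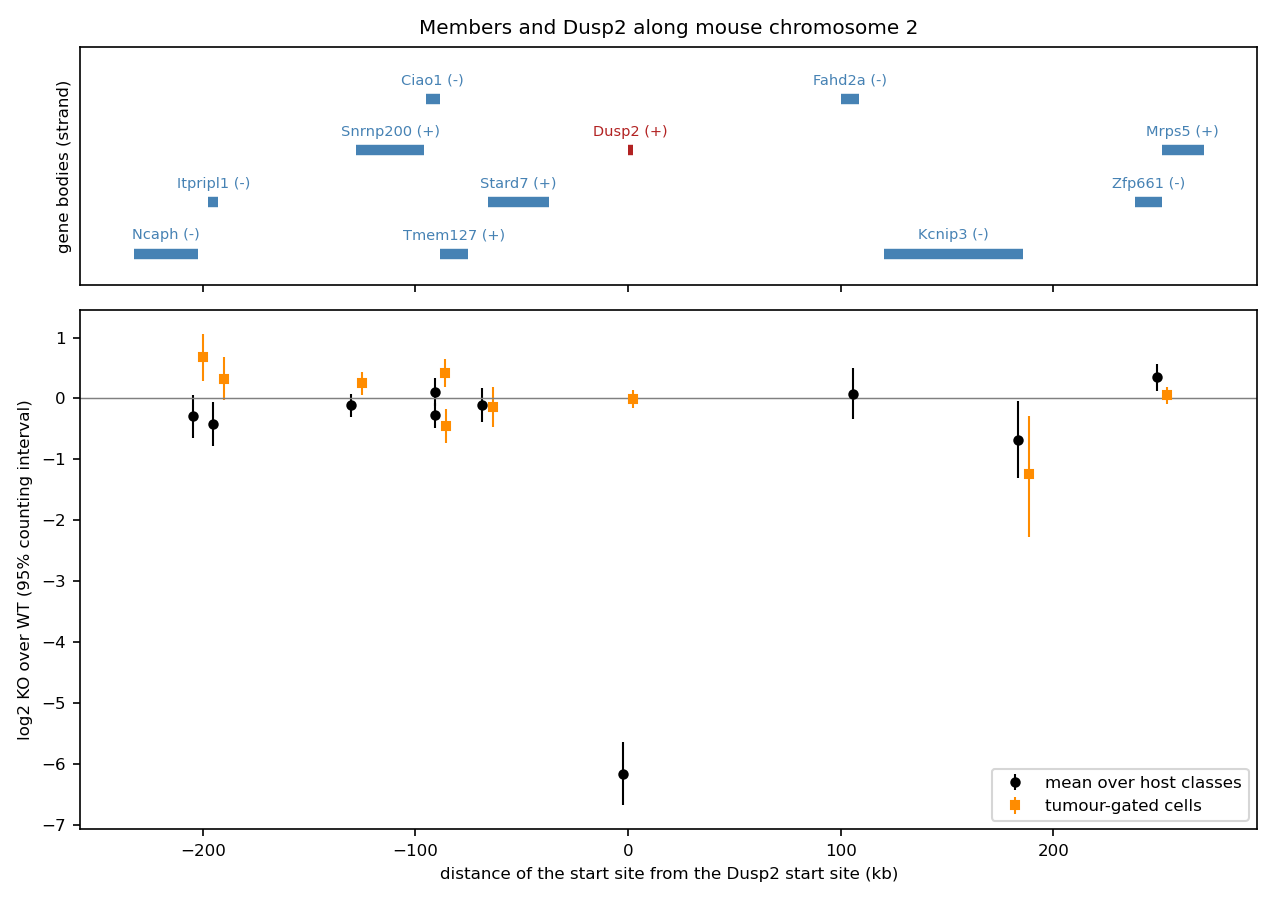
Gene bodies of the 10 members and Dusp2 by distance from the Dusp2 start in kb (top, vertical place has no meaning), and log2 of KO over WT at each start site (bottom) as the mean over host classes (black circles) and in tumour cells (orange squares), with bars for the 95% counting interval. Dusp2 lies at -6.16 in the host mean over 5 classes, without regulatory T cells, whose KO count is 0, and at -0.0045 in tumour cells, while every host mean of a neighbour lies between -0.68 and 0.34.

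Host means in the map weight each class equally, because the libraries differ in cell makeup. Stard7, the nearest member, stood at 20.2 CPM in WT and 24.1 CPM in KO CD8 T cells, log2 0.26 (-0.22 to 0.75). In CD4 T cells it was 20.1 in WT and 15.8 CPM in KO, in NK cells 17.7 and 16.8 CPM, and in macrophages 17.0 and 14.8 CPM. Its highest level was in conventional dendritic cells, 29.2 CPM in WT and 26.3 CPM in KO, and in tumour cells it was 16.2 and 14.8 CPM. The 2 libraries' intervals overlapped in all of these classes. Over 5 host classes the mean log2 ratio was -0.11 (-0.38 to 0.17), 4 lower and 1 higher, and in tumour cells -0.14 (-0.46 to 0.19). The host mean minus the tumour value was 0.03 (-0.39 to 0.45), an interval that holds differences of up to about 0.45 either way.

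In macrophages, the class with the most summed UMIs, the listed lipid-transfer relatives of Stard7 were 4 higher and 9 lower. They were 13 of 14 measured, with a median of -0.04. Of all measured genes in macrophages, 53.6% were lower. Acot11 was at 4.82 CPM in WT and 1.58 CPM in KO, log2 -1.61, and Stard6 at 2.12 and 1.5 CPM, log2 -0.50. Stard7 itself lay at -0.20 (-0.44 to 0.04) there.

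Between Dusp2 and Fahd2a, the next member downstream, lie genes that were barely detected. Astl, which starts 262 bases after Dusp2 ends, had 47 UMIs in the host classes together, Gpat2 had 1 and Adra2b had 0. The closest genes on that side could therefore not be compared at this depth. Upstream, 1810024B03Rik lies between Itpripl1 and Snrnp200 and is not a member. Its log2 ratio was 0.15 (-0.63 to 0.97) in CD8 T cells and 0.24 (-0.19 to 0.64) in macrophages. In tumour cells it was 0.68 (0.18 to 1.18), past 1.5-fold.

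Tmem127 was lower in KO in 5 of 6 host classes. The exception was CD8 T cells, with 35.5 CPM in WT and 36.7 CPM in KO, log2 0.05 (-0.32 to 0.42). In macrophages Tmem127 stood at 31.4 CPM (29.8 to 33.2) in the WT library against 24.8 CPM (22.1 to 27.8) in the KO library, log2 -0.34 (-0.53 to -0.16), and the level intervals did not overlap. In conventional dendritic cells it was 35.1 and 24.6 CPM, log2 -0.52 (-1.01 to -0.03). The other host classes had wider intervals that held 0: 43.1 and 38.2 CPM in CD4 T cells, 46.2 and 35.1 CPM in regulatory T cells, and 41.1 and 33.5 CPM in NK cells. Tumour cells showed the same side, 23.9 CPM (21.2 to 26.9) in the WT library against 17.5 CPM (14.9 to 20.3) in the KO library, log2 -0.45 (-0.74 to -0.17). The host mean was -0.28 (-0.48 to -0.07) and the host mean minus the tumour value 0.17 (-0.17 to 0.52). With cells thinned to 2000 UMIs it was lower in 4 of 6 host classes, the tumour ratio was 0.13 (-0.95 to 1.21) and the host mean minus the tumour value -0.27.

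Ragulator and the Rag GTPases hold mTORC1 at the lysosome, where Tmem127 restrains it. In macrophages 6 of the 8 measured members of that list were higher and 2 lower, median 0.11, and in tumour cells 5 were higher and 2 lower (median 0.10). The members farthest from 0 in macrophages were Rragd, 1.94 CPM in WT and 1.25 CPM in KO, log2 -0.64, and Lamtor4, 166 and 140 CPM, log2 -0.25. In tumour cells they were Rragc at log2 -0.30 and Lamtor3 at 0.25.

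Ciao1, which shares its start interval with Tmem127, was on the other side. In macrophages Ciao1 stood at 16.6 CPM (15.4 to 17.9) in the WT library against 22.2 CPM (19.6 to 25) in the KO library, log2 0.42 (0.21 to 0.62). In tumour cells it was 24.5 CPM (21.7 to 27.6) in the WT library against 32.8 CPM (29.2 to 36.6) in the KO library, log2 0.42 (0.18 to 0.65). In both classes Ciao1 was higher and Tmem127 lower in the KO library. Elsewhere Ciao1 ranged from log2 -0.19 in CD4 T cells (31.6 and 27.8 CPM) to 0.37 in NK cells (27.4 and 35.3 CPM), and every one of those intervals held 0. The host mean was 0.10 (-0.13 to 0.33), 3 classes higher and 3 lower, and the host mean minus the tumour value -0.32 (-0.64 to 0.01).

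The other genes of cytosolic iron-sulphur assembly gave 6 higher and 2 lower of 8 in macrophages, with a median of 0.04. Nubp1, a scaffold of the early step, was at 54.2 CPM in WT and 67.5 CPM in KO, log2 0.32, and Nubp2, its partner, at 24.5 and 28.4 CPM, log2 0.21. In tumour cells 5 were higher and 3 lower (median 0.08), led by Ciapin1 at 0.43 and Ndor1 at -0.40.

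Snrnp200 had ratios on both sides of 0. It was lower in KO in NK cells, 55.1 CPM (46.7 to 64.6) in the WT library against 35.3 CPM (25.2 to 48.0) in the KO library, log2 -0.64 (-1.18 to -0.13). It was also lower in CD8 T cells, 52.2 CPM (44.2 to 61.2) and 37.7 CPM (32.1 to 43.9), log2 -0.47 (-0.80 to -0.14). It was higher in KO in conventional dendritic cells, 27.0 CPM (21.2 to 34.0) and 41.9 CPM (34.1 to 51.0), log2 0.63 (0.18 to 1.09). With gates by marker score that value was 0.11 (-0.20 to 0.43). The dendritic gate differed in makeup: the 8 conventional dendritic markers summed to 4521 CPM in WT and 3576 CPM in KO, 6 plasmacytoid markers to 253 and 685 CPM, and both Cd8 genes to 2.22 and 58.0 CPM, and their part in the ratio was not tested. In macrophages, which hold most of its UMIs, it was 42.0 CPM (40.1 to 44.0) in the WT library against 38.7 CPM (35.3 to 42.4) in the KO library, log2 -0.12 (-0.27 to 0.03). Tumour cells had 39.6 CPM in WT and 47.0 CPM in KO, log2 0.25 (0.06 to 0.44), and CD4 T and regulatory T cells lay at -0.11 and 0.04. The host mean was -0.11 (-0.30 to 0.08), and the host mean minus the tumour value -0.36 (-0.62 to -0.09). Under the processing alternatives that difference ran from -0.76 to -0.14. A gate by marker score in place of marker counts brought the tumour value to -0.01.

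The partners of Snrnp200 in the U5 and tri-snRNP particles gave 2 higher and 10 lower of 12 in NK cells, with a median of -0.21. Of all measured genes in NK cells, 59.1% were lower. Cd2bp2 was at 31.3 CPM in WT and 51.2 CPM in KO, log2 0.71, and Prpf3 at 25.6 and 19.4 CPM, log2 -0.40. In conventional dendritic cells 7 were higher and 5 lower (median 0.01), Prpf4 at -0.42 and Snrnp40 at 0.21. The CD8 T median was 0.05, with 7 higher and 5 lower.

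**Figure D2:**
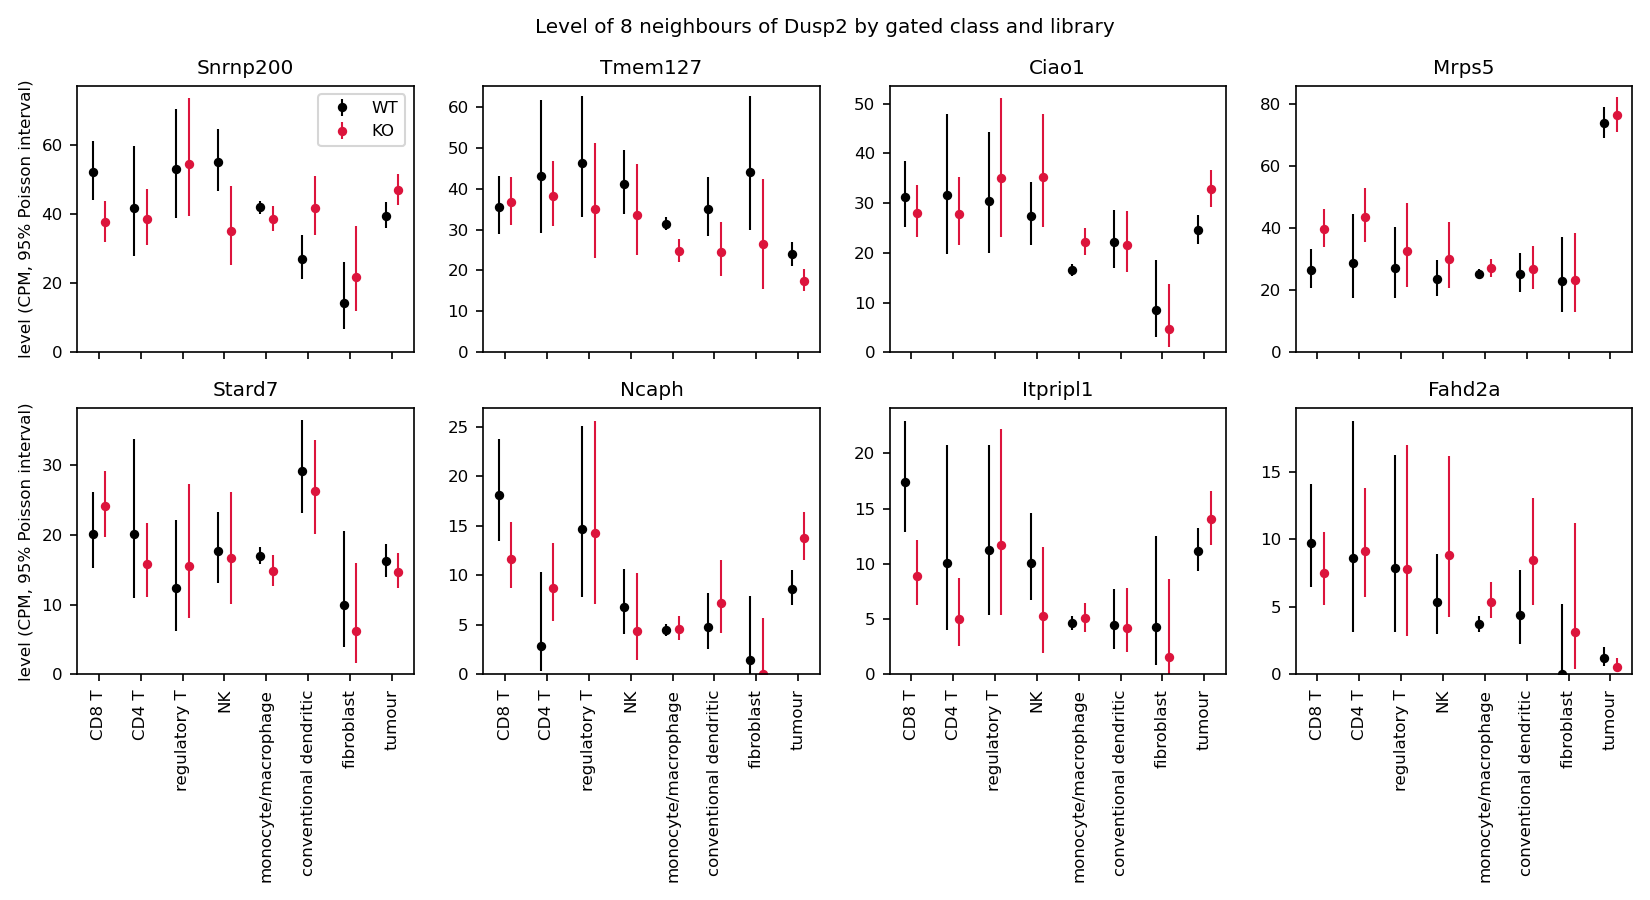
Level in CPM of 8 members in each gated class, WT library in black and KO library in red, with 95% Poisson intervals (counting error only). Mrps5 stands at 73.8 and 76.5 CPM in tumour cells, above the other classes in both libraries, and the WT and KO intervals overlap in most panels and classes.

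Mrps5, at the downstream end, was higher in KO in 5 of 5 host classes with 50 UMIs. CD8 T cells held it at 26.4 CPM (20.8 to 33.1) in the WT library against 39.8 CPM (34.0 to 46.2) in the KO library, log2 0.59 (0.19 to 1.0), and the level intervals did not overlap. In CD4 T cells it was 28.8 and 43.6 CPM, log2 0.60 (-0.10 to 1.37), and in NK cells 23.4 and 30.0 CPM, log2 0.36 (-0.29 to 0.98). Macrophages, with 25.3 CPM in WT and 27.0 CPM in KO, and conventional dendritic cells, with 25.2 and 26.7 CPM, gave 0.09 (-0.09 to 0.27) and 0.08 (-0.43 to 0.60). Tumour cells held 73.8 CPM (69.0 to 79.0) in the WT library against 76.5 CPM (71.1 to 82.3) in the KO library, log2 0.05 (-0.09 to 0.20). The host mean was 0.34 (0.12 to 0.57), and it exceeded the tumour value by 0.29 (0.03 to 0.56). The direction in all 5 classes also held with median-ratio scaling and with totals without immunoglobulin, mitochondrial, ribosomal protein and haemoglobin genes. It held in 4 of 5 classes with stricter gates, without the deepest 10% of cells or without cells with Mki67 or Top2a, and in 3 of 5 with cells thinned to 2000 UMIs.

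Cells with a UMI of Ccr7 or Lef1, genes of resting T cells, made up 50.9% of WT and 68.4% of KO CD8 T cells, and 53.8% and 76.2% of CD4 T cells. Without those cells the Mrps5 ratio was 0.83 (0.09 to 1.59) in CD8 T cells and 0.15 (-1.06 to 1.44) in CD4 T cells. The other proteins of the small mitochondrial ribosomal subunit gave 20 higher and 12 lower of 32 in CD8 T cells, with a median of 0.04, and 25 higher and 5 lower of 30 in CD4 T cells, with a median of 0.22. Of these, Mrps18b in CD8 T cells was at 20.5 CPM in WT and 29.9 CPM in KO, log2 0.54, and Mrps6 at 91.2 and 68.5 CPM, log2 -0.41. In NK cells 22 of 30 were higher, with a median of 0.20, and in macrophages 27 of 32, with a median of 0.16. The partners' median was -0.08 in conventional dendritic cells and 0.05 in tumour cells. The Mrps5 ratio was above the partners' median in CD8 T, CD4 T, NK and conventional dendritic cells, below it in macrophages and equal to it to 2 decimals in tumour cells.

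Zfp661, whose start lies 127 bases from that of Mrps5, had too few UMIs for a ratio. It was found with 23 WT and 4 KO UMIs in macrophages, 13 and 6 in tumour cells, and at most 3 UMIs in either library in any other compared class. The machinery that KRAB zinc finger proteins recruit was measured in macrophages, 3 higher and 3 lower of 6, with Atf7ip at log2 -0.37 and Cbx5 at -0.23.

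Ncaph was past 1.5-fold in opposite directions in 2 classes. In tumour cells it stood at 8.67 CPM (7.05 to 10.5) in the WT library against 13.8 CPM (11.6 to 16.4) in the KO library, log2 0.67 (0.29 to 1.06). In CD8 T cells it was 18.1 CPM (13.5 to 23.7) in the WT library against 11.7 CPM (8.68 to 15.4) in the KO library, log2 -0.63 (-1.22 to -0.04). In macrophages it was 4.45 and 4.57 CPM, log2 0.04 (-0.42 to 0.48). The host mean of Ncaph, over CD8 T cells and macrophages only, was -0.30 (-0.65 to 0.06). That mean minus the tumour value was -0.97 (-1.48 to -0.45), and it ran from -1.16 to -0.39 under the processing alternatives. Cells with a UMI of Mki67 or Top2a, a mark of cycling cells, were 68.6% of WT and 78.3% of KO tumour cells, and 30.1% and 23.5% of CD8 T cells. The share of such cells was higher in KO in tumour cells and lower in KO in CD8 T cells. Its part in the Ncaph ratios was not tested. Thinned to 2000 UMIs per cell, the shares were 27.9% and 38.7% in tumour cells and 18.1% and 13.4% in CD8 T cells. Without these cells the tumour ratio of Ncaph was -0.17 (-6.05 to 4.10), on too few UMIs to place it on either side of 0, whereas in CD8 T cells it was -1.85 (-3.53 to -0.35), farther from 0 than with them. The CD8 T ratio was -0.37 (-0.96 to 0.22) with gates by marker score, -0.27 (-1.21 to 0.68) without the deepest 10% of cells and -0.17 (-1.20 to 0.84) without cells with Ccr7 or Lef1.

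The other condensin subunits were counted in the same classes. In tumour cells 7 of 7 were higher in KO, with a median of 0.34, with Smc4 at 154 CPM in WT and 216 CPM in KO, log2 0.49, and Smc2 at 57.3 and 77.9 CPM, log2 0.44. The proliferation list gave 17 of 17 higher with a median of 0.57, with Ccnb1 at 1.08 and Ube2c at 0.85. Condensin in CD8 T cells gave 2 higher and 5 lower, in a class where 61.8% of all genes were lower, with a median of -0.38, Ncapg at -0.57 and Ncapd2 at -0.46. Of the proliferation genes there 5 had higher and 12 lower values in KO (median -0.10), Rrm2 at 0.64 and Ube2c at -0.52.

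Itpripl1, the gene next to Ncaph, was lower in KO CD8 T cells, 17.4 CPM (12.9 to 22.9) in the WT library against 8.89 CPM (6.29 to 12.2) in the KO library, log2 -0.97 (-1.62 to -0.33). The level intervals did not overlap, and the difference rests on 50 and 38 UMIs. At 2000 UMIs per cell, 5.64% of the WT cells but 2.11% of the KO cells of that class held an Itpripl1 UMI. In CD8 T cells without Ccr7 and Lef1 UMIs the ratio was -0.19 (-1.16 to 0.75). In macrophages Itpripl1 was 4.63 and 5.07 CPM, log2 0.13 (-0.31 to 0.55), and in tumour cells 11.2 and 14.0 CPM, log2 0.33 (-0.03 to 0.69). Its host mean, -0.42, comes from 2 classes that lie on opposite sides of 0. That mean minus the tumour value was -0.75 (-1.25 to -0.24), and it ran from -1.05 to -0.36 under the processing alternatives.

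**Figure D3:**
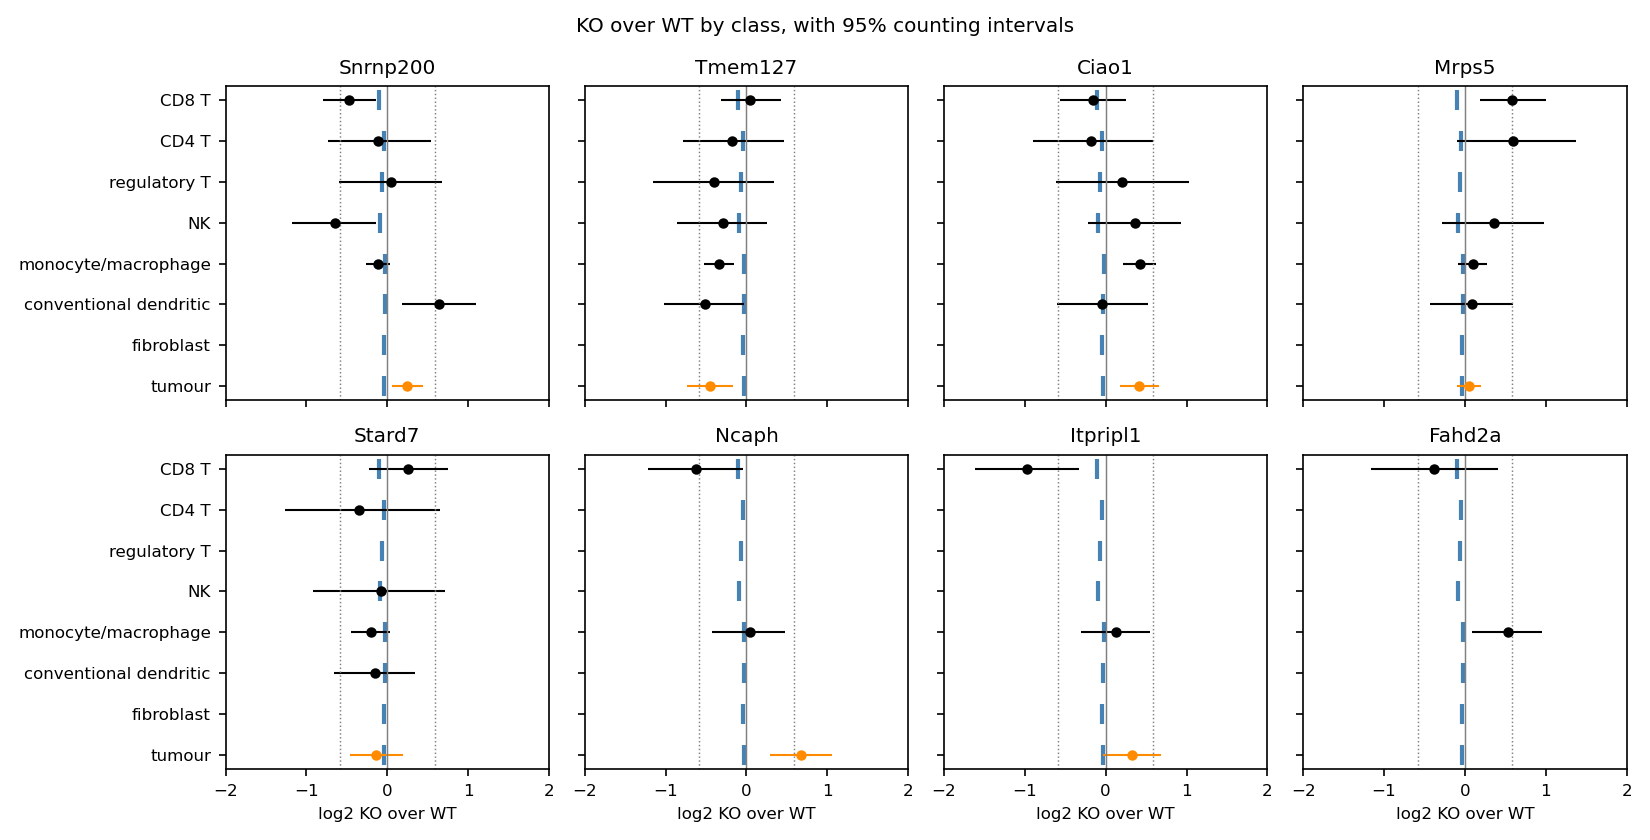
Log2 of KO over WT for 8 members by class, host classes in black and tumour cells in orange, with 95% counting intervals, only where both libraries together hold 50 UMIs. Dotted lines mark 1.5-fold and blue ticks the median of all genes of the class. Mrps5 lies right of 0 in each class shown, Tmem127 left of 0 in all but CD8 T cells, and Snrnp200 on both sides.

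Kcnip3 was mainly an NK-cell RNA among the compared classes. NK cells held 98 UMIs in WT and 25 in KO, 35.3 CPM (28.7 to 43.0) and 22.0 CPM (14.3 to 32.5), log2 -0.68 (-1.38 to -0.03). Conventional dendritic cells held 20 and 20 UMIs, 7.40 and 8.47 CPM. T cells held 0 to 2 UMIs in each class and library, and macrophages 0.32 and 0.42 CPM. Tumour cells held 37 and 13 UMIs, 3.21 CPM (2.26 to 4.42) and 1.36 CPM (0.72 to 2.33), log2 -1.24 (-2.27 to -0.29). NK cells were the only host class with 50 UMIs of Kcnip3, and their value minus the tumour value was 0.56 (-0.55 to 1.67). Its relative Hpcal1, also a calcium sensor, was at 76.4 CPM in WT and 50.3 CPM in KO in NK cells, log2 -0.60 (-1.05 to -0.18).

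Fahd2a was low in every class. In macrophages it was 3.73 CPM (3.18 to 4.36) in the WT library against 5.40 CPM (4.17 to 6.88) in the KO library, log2 0.53 (0.09 to 0.96). In CD8 T cells it was 9.74 and 7.48 CPM, log2 -0.38 (-1.16 to 0.41), and in tumour cells 14 and 5 UMIs, too few for a ratio. Among the relatives of Fahd2a and Itpripl1 in macrophages, Fahd1 lay at log2 0.57 and Itprip at -0.52.

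**Figure D4:**
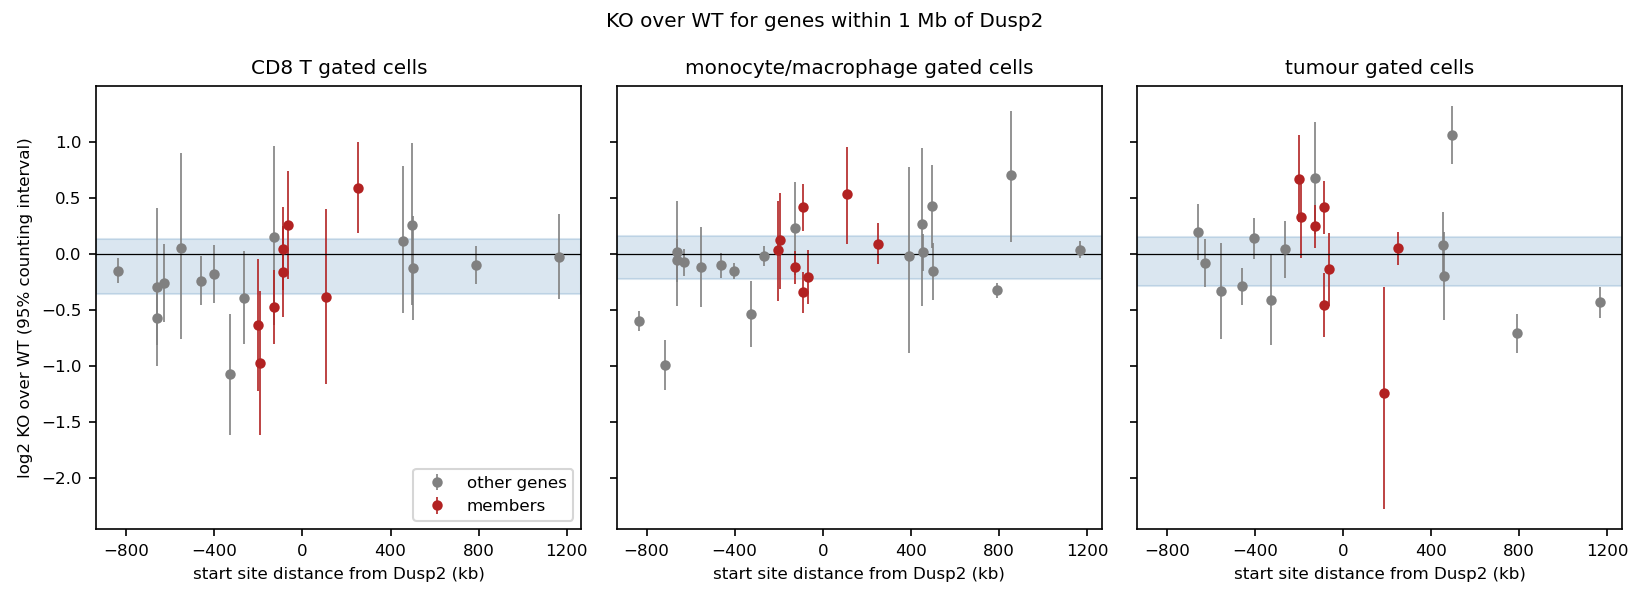
Log2 of KO over WT against the distance of the start site from Dusp2 in kb, for genes within 1 Mb with 50 UMIs, in CD8 T cells, macrophages and tumour cells. Members are red, other genes grey, Dusp2 is not drawn, bars are 95% counting intervals and the blue band holds the middle 50% of all genes. Members span -1.24 (Kcnip3) to 0.67 (Ncaph), both in tumour cells, and other genes span -1.07 (CD8 T cells) to 1.06 (tumour cells).

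The other genes within 1 Mb were measured to set the members in their surroundings. Besides the members, 26 annotated genes there are in the matrices, 22 of them protein-coding, and 16 had at least 200 UMIs over the host classes. Annotated genes absent from the matrices were left out. None of those 16 lay past 1.5-fold in the same direction in 3 or more of the 8 classes. The share of all genes that meet this rule is not given here, so the count cannot be set against it. Over the other genes with 50 UMIs in a class, the median log2 ratio was -0.15 in CD8 T cells, -0.13 in NK cells, -0.05 in macrophages and -0.08 in tumour cells, against -0.27, -0.18, 0.07 and 0.15 for the members. In CD8 T cells 4 of 15 were higher and 11 lower, in macrophages 7 and 12 of 19, and in tumour cells 6 and 7 of 13. Of all measured genes, 61.8% were lower in CD8 T cells, 53.6% in macrophages and 55.1% in tumour cells.

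Dusp2 and its neighbours were also read in the same cells. In WT NK cells thinned to 2000 UMIs, Tmem127 was found in 9.67% (6.83 to 13.2) of 362 cells with a Dusp2 UMI and in 3.0% (0.62 to 8.52) of 100 cells without. In WT CD8 T cells the shares were 7.61% and 9.58% for Tmem127 and 8.70% and 5.99% for Snrnp200. In WT CD4 T cells Tmem127 was found in 5.26% (0.64 to 17.7) of 38 cells with Dusp2 and 13.5% (7.41 to 22.0) of 96 without. Only some of the counted pairs of gene and class are given here. In WT macrophages Ciao1 was found in 4.41% (2.75 to 6.67) of 476 cells with Dusp2 and 2.98% (2.46 to 3.58) of 3719 cells without. The intervals overlapped in each of these pairs. Shares with a UMI also include free RNA, which was not separated here.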

How the data were processed

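The authors deposited raw UMI counts per gene and barcode as sparse matrices. The tools were Cell Ranger 6.0.1, Seurat 4.0.3 and Seurat 4.0.4, with the build mm10, per the submitters' processing notes, whereas per the file headers the matrices came from Cell Ranger 8.0.1. Annotation release and strand use were not given in the sources used here. Cells with fewer than 200 genes or more than 20% mitochondrial UMIs were dropped. Classes were gated by counts of marker genes. The gate thresholds were set after the files were seen but without looking at the members. Cells in more than 1 gate (6 in KO) were left out and no doublet caller was run. B cells, plasma cells, plasmacytoid dendritic cells and neutrophils had under 50 cells in a library and were not compared. Counts were summed per class and library and scaled to CPM. Levels had exact Poisson intervals and ratios exact conditional intervals (Python 3.11.15, scipy 1.17.1). The ratio intervals were tested on simulated Poisson counts with known folds, which hold no cell-to-cell spread beyond counting. Intervals of host means, and of host means minus tumour values, are normal approximations and were not part of that test. No model was fitted. All 10 members and Dusp2 are named. Of each partner list the 2 genes farthest from 0 in the class described are named. By rule, other genes within 1 Mb would have been named had they been past 1.5-fold in the same direction in 3 classes. Those named for their place beside Dusp2 or among the members, or after their values were seen, are outside that rule. The genes most like a member needed 50 UMIs in all 8 classes, which no member had, so that measure was rerun without fibroblasts. The members and lists were chosen with earlier results of these data known.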

Additional observations from a re-analysis of the deposited data

Results flagged for a closer look

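Snrnp200 and Ncaph had ratios of KO over WT whose counting intervals lay wholly above 0 in some classes and wholly below 0 in others. For Snrnp200 the log2 ratio was 0.63 in conventional dendritic cells and 0.25 in tumour cells, but -0.47 in CD8 T cells and -0.64 in NK cells. For Ncaph it was 0.67 in tumour cells and -0.63 in CD8 T cells. The CD8 T interval of Ncaph held 0 with median-ratio scaling, -0.53 (-1.12 to 0.06), without immunoglobulin, mitochondrial, ribosomal protein and haemoglobin genes, -0.51 (-1.10 to 0.08), and with gates by marker score, -0.37 (-0.96 to 0.22). The dendritic value of Snrnp200 was 0.11 (-0.20 to 0.43) with gates by marker score, and its tumour value -0.0064 (-0.11 to 0.09). With 1 library per genotype the difference between classes was not tested.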

How the results depend on the processing

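No paired analysis was possible because each genotype is 1 library. Of 430 values within classes under the alternatives, 407 moved by less than their counting interval, 22 moved further, and 1 value past 1.5-fold changed sign, Ncaph in tumour cells at -0.17 without cells with Mki67 or Top2a. Counting values of any size, 48 of the 430 lay on the other side of 0. Leaving out cells with Mki67 or Top2a, and leaving out T cells with Ccr7 or Lef1, were chosen after seeing the data. The count of 9 of 43 values past 1.5-fold was 3 of 15 after thinning, 2 of 19 at 200 UMIs or more, 23 of 68 with no minimum of UMIs and 1 of 43 at a fold of 2. The share of all genes past the fold under each of these settings is not given here. These counts therefore do not set the members against other genes.

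In tumour cells, leaving out cells with Mki67 or Top2a gave Itpripl1 0.69, Ciao1 1.08 and Mrps5 -0.19, and thinning gave Snrnp200 0.55, Tmem127 0.13 and Mrps5 0.25. Snrnp200 was at -0.0064 there with the marker score. The host mean minus the tumour value was -0.39 for Ncaph, -1.11 for Ciao1 and 0.57 for Mrps5 without cells with Mki67 or Top2a. After thinning it was -0.76 for Snrnp200, -0.27 for Tmem127 and 1.78 for Kcnip3. The host mean of Itpripl1 was -0.030 without T cells with Ccr7 or Lef1, 0.13 without CD8 T cells and -0.97 without macrophages. That of Fahd2a was 0.53 after thinning, 0.53 without CD8 T cells and -0.38 without macrophages. The cause of these shifts was not tested, except that leaving out 1 of 2 classes leaves the other. Depth limits the low members: Zfp661, and Kcnip3 outside NK and tumour cells, could not be compared.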

Other observations

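The KO library alone held enough B cells (3101) and plasma cells (338) to give the members' levels there. B cells carried Ncaph at 19.3 CPM (17.4 to 21.5), above the 13.8 CPM of KO tumour cells, with 29.9% of B cells holding a UMI of Mki67 or Top2a. Mrps5 was at 42.1 CPM in B cells and 41.5 CPM in plasma cells. Snrnp200 was at 43.9 CPM (40.9 to 47.1) in B cells and 16.5 CPM (13.2 to 20.3) in plasma cells, and Tmem127 at 23.5 and 15.0 CPM. In the plasma cells a large part of all UMIs is antibody RNA, so CPM of other genes are lowered there by construction. The part of this in each difference between B cells and plasma cells was not tested.

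Ap4e1, a subunit of an adaptor complex for vesicle traffic 268 kb upstream of Dusp2, was picked after its values were seen. It lay at log2 -1.07 in CD8 T cells, -1.11 in NK cells, -0.53 in macrophages and -0.41 in tumour cells, past 1.5-fold in 2 classes. Bub1, a mitotic checkpoint kinase 463 kb downstream, was also picked after its values were seen and lay at 1.06 in tumour cells.

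The genes whose level was most like that of a member over 14 class and library levels (7 classes, fibroblasts left out, 4508 genes) are given as a description. For Tmem127 they were Zmym2, Skic2 and Csnk1a1, with Pearson r of 0.96, 0.96 and 0.95. For Ciao1 they were Fen1, Mrpl43 and Bag4 at 0.94, 0.92 and 0.92, and for Snrnp200 Ei24, Eif4e3 and Med12 at 0.80, 0.79 and 0.77. The points share libraries and depth.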
